A study of Mus musculus with 6 samples.

Results

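The genes described here make and sulfate glycosaminoglycans, the sugar chains that cartilage proteoglycans carry. A list of 42 genes was read from whole-transcript expression arrays of mouse chondrocytes, and 41 of them matched a probe set among 19932 genes with a symbol. The members were chosen by function, namely the linker that joins a chain to its core protein, the chondroitin chain, its sulfation, the heparan sulfate chain, and the supply of sulfate and sugars. Where a gene had several probe sets, the brightest on average over the 6 arrays stood for it. Slc35b2, a transporter of activated sulfate into the Golgi, was not matched and was not analysed here.

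All samples came from untreated wild-type ICR mice, an outbred strain. One group was chondrocytes of the nasal septum at embryonic day 17.5 (n = 3) and the other chondrocytes of the rib at postnatal day 1 (n = 3). The series sets such arrays beside maps of the transcription factor Sox9 and of histone marks, which were not analysed here. Site and age differ together, so their parts in any difference cannot be told apart. The labels call the samples of a group biological replicates and do not say whether a sample pooled several animals.

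A glycosaminoglycan chain begins with xylose on a serine of the core protein, followed by galactose, galactose and glucuronic acid. The next sugar decides its type. N-acetylgalactosamine starts chondroitin sulfate, the main chain of aggrecan, and N-acetylglucosamine starts heparan sulfate, which binds growth factors at the cell surface. Golgi sulfotransferases then modify the growing chain with sulfate from the donor PAPS (3'-phosphoadenosine 5'-phosphosulfate). Inherited defects at many of these steps cause skeletal dysplasia.

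Median intensities of the 6 arrays ran from 209 to 261, and pairs of samples correlated across probe sets at 0.987 to 0.993 within a group and at 0.957 to 0.968 across groups. Of 12 chondrocyte markers, 11 lay between 2184 and 16032 in both groups, and Matn1, a matrix protein of some cartilages, stood at 11589.8 in nasal and 1833 in rib. Some markers of other cells also differed. Endothelial markers summed to 655 to 1046 in nasal and 470 to 553 in rib, with 2 of 5 past the test, adipocyte markers to 1556 to 2017 and 515 to 594 (1 of 3, Fabp4), and glial and neuronal markers to 1136 to 1344 and 822 to 951 (2 of 5). In the other direction, tendon markers summed to 556 to 592 in nasal and 728 to 1052 in rib (2 of 3), muscle markers to 1053 to 1340 and 1616 to 1941 (2 of 6), and erythroid markers to 565 to 905 and 966 to 1081 (1 of 4, Alas2). The adipocyte sums were mostly Fabp4, at 1523 in nasal and 345 in rib. The erythroid sums were mostly Alas2 in rib, at 312 in nasal and 632 in rib. Hemgn went the other way, at 136 in nasal and 99 in rib. The excess of the muscle sum in rib lay mostly in Tnnt3, at 322 in nasal and 764 in rib. Myog was higher in every nasal sample, at 160 in nasal and 116 in rib, but did not pass. Perichondrial and fibroblast markers summed to 25440 to 27500 and 25520 to 30850 (3 of 8, all higher in rib). Of the same list, Lum (5503 in nasal and 4388 in rib) and Postn (5795 and 3980) were higher in every nasal sample but did not pass. Hypertrophic chondrocyte markers summed to 11500 to 12420 in nasal and 18270 to 20260 in rib. The excess of that sum in rib lay in Spp1, at 4351 in nasal and 12414 in rib. Of the 6 hypertrophic markers, Ibsp (2.04, SE 0.23) and Alpl (0.48, SE 0.09) were higher in nasal and Spp1 (-1.51, SE 0.11) and Ihh (-0.46, SE 0.11) in rib, on the log2 scale of nasal minus rib. Osteoblast (1 of 6), epithelial (2 of 5) and macrophage and osteoclast markers (1 of 4) passed in part, and granulocyte markers in 0 of 4 (limma; 1 at an unadjusted p under 0.05). By list, the share past the test ran from 0% for granulocyte markers to 66.7% for tendon and for hypertrophic markers. Over all genes 28.5% passed, and 43.7% of those at or above the median gene level. The part of other cells in the results below was not tested. In bulk RNA, fewer cells of a type and less RNA per cell cannot be told apart. Precision is limited by the 3 arrays in each group.

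Of the 41 measured genes, 10 passed as higher in nasal and 16 passed as higher in rib, at an adjusted p under 0.05 (limma over all genes, Benjamini-Hochberg). Together they made 63.4% of the measured members, where 28.5% of all genes passed. In the linker, rib was higher for 5 of 6 genes and nasal for 0 by limma (0 also at an unadjusted p under 0.05). In the chondroitin chain, 3 of 6 were higher in rib and 0 in nasal (1 at an unadjusted p under 0.05). Chondroitin and dermatan sulfation had 3 of 10 higher in each direction, and sulfate and sugar supply 2 of 7 in each. The heparan sulfate genes had 5 of 12 higher in nasal and 3 in rib. Over all genes, 13.8% were called higher in nasal and 14.7% higher in rib.

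On these arrays 40 of the 41 members lay at or above the median gene level. Among the 9966 genes at or above that level, 43.7% passed, 17.1% higher in nasal and 26.7% higher in rib, and among those below it 13.3% passed. Their median log2 difference was -0.07, against 0.11 for all genes and 0.23 for the genes below the median level. The nasal and rib values did not overlap for 32 members, or 78.0%, against 45.7% of all genes and 64.4% of those at or above the median level. Nasal was higher in 13 of these members (24.0% and 25.9% of the same gene sets) and rib in 19 (21.7% and 38.6%). The members' median was -0.10. By step the medians were -0.41 for the linker, -0.26 for the chondroitin chain, -0.11 for chondroitin and dermatan sulfation, 0.13 for supply and 0.12 for heparan sulfate. Throughout, a difference is a log2 intensity in nasal minus that in rib, SE is its standard error from limma, and a positive value means higher in nasal. Without nasal replicate 1, which had the highest 25th percentile of intensity of the 6 arrays, 10 members were called higher in nasal and 17 in rib. Leaving out rib replicate 2 gave 7 and 10.

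**Figure D1:**
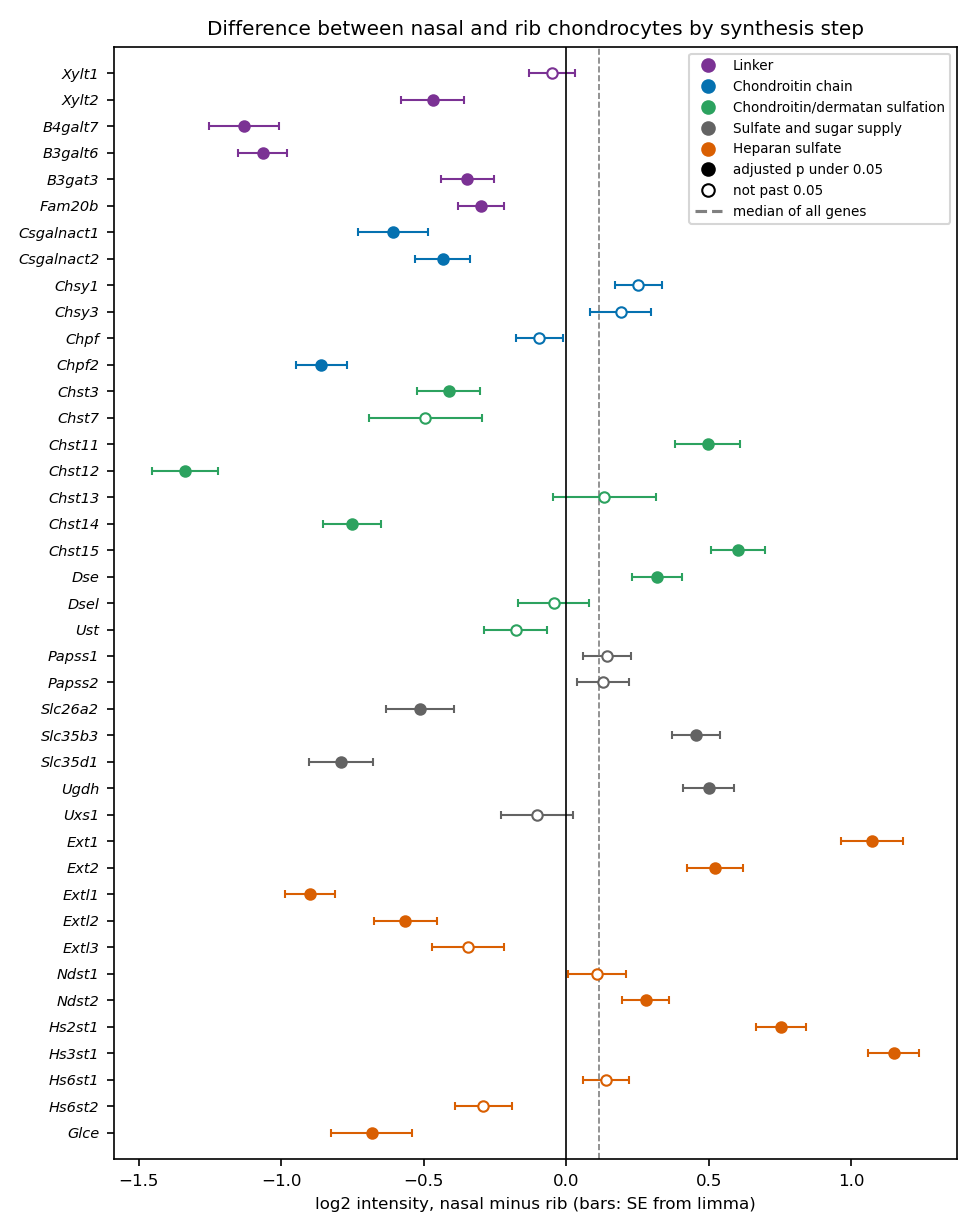
Log2 intensity in nasal minus rib for the 41 measured genes, grouped by step, with bars for the standard error from limma and filled points for an adjusted p under 0.05. The linker genes lie at or left of zero, with B4galt7 at -1.13 and B3galt6 at -1.06, while Ext1, Hs2st1 and Hs3st1 lie farthest right at 1.07, 0.75 and 1.15.

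**Figure D2:**
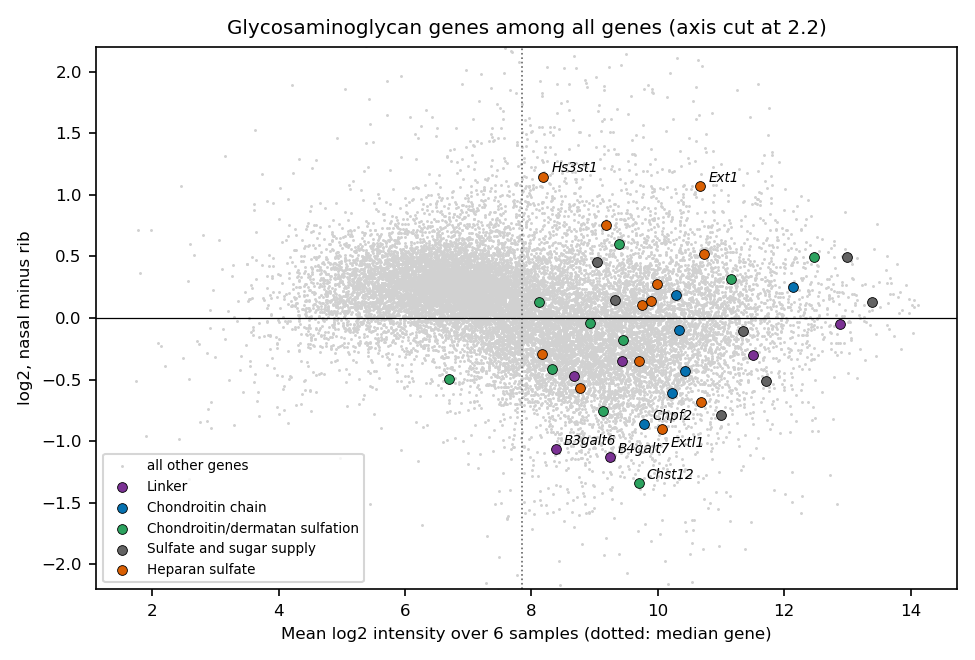
Mean log2 intensity over the 6 samples (horizontal) against log2 intensity in nasal minus rib (vertical), with all other genes in grey and the 41 members coloured by step. The vertical axis stops at 2.2 in each direction, which leaves some other genes out of view but no member. Of the 41 members, 40 lie at or above the median gene level, marked by the dotted line.

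The linker genes are taken in the order in which their enzymes act. Xylt1 and Xylt2 encode the xylosyltransferases that place the first sugar. Xylt1 read 7310.0, 7610.3 and 7484 in the nasal samples and 7738, 7889.7 and 7567 in the rib samples (log2 difference -0.05, SE 0.08, limma adjusted p = 0.663), and the groups overlapped. Xylt2 read 398, 326 and 323 in the nasal samples and 466, 476 and 501 in the rib samples, and every rib sample lay above every nasal sample (log2 difference -0.47, SE 0.11, limma adjusted p = 0.0196). The ratio of Xylt1 to Xylt2 within each sample was higher in nasal, with a log2 difference of 0.42 (SE 0.12), which became 0.18 after cyclic loess. Since probe sets differ in brightness, the change of such a ratio between groups can be read and its size cannot.

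B4galt7 and B3galt6 encode the enzymes that add the galactose residues, and they had the largest differences of the linker. B4galt7 read 414, 351 and 467 in the nasal samples and 917, 900.4 and 861 in the rib samples (log2 difference -1.13, SE 0.12, limma adjusted p = 0.000921), a level 2.19-fold higher in rib. B3galt6 read 240.2, 224 and 229 in the nasal samples and 485, 463 and 501 in the rib samples (log2 difference -1.06, SE 0.09, limma adjusted p = 0.000380), 2.09-fold higher in rib. In both genes the lowest rib sample lay far above the highest nasal sample. They were 2 of the 5 members that passed the test with at least a 2-fold difference, as 3.75% of all genes and 5.76% of genes at or above the median level did.

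B3gat3 encodes the glucuronyltransferase that completes the linker, and Fam20b the kinase that phosphorylates its xylose. B3gat3 read 626, 637 and 579 in the nasal samples and 733, 788 and 822 in the rib samples (log2 difference -0.35, SE 0.09, limma adjusted p = 0.0303). Fam20b read 2603, 2606 and 2703 in the nasal samples and 3261, 3249 and 3223 in the rib samples (log2 difference -0.30, SE 0.08, limma adjusted p = 0.0309), 1.23-fold higher in rib, and the groups did not overlap. Pxylp1, the phosphatase that removes the same phosphate, went the other way, with 833 in nasal and 428 in rib (log2 difference 0.96, SE 0.08, limma adjusted p = 0.000472). In the list of linker regulation from which it comes, 1 of 4 genes was higher in nasal and 1 in rib. The latter was Fam20c, a kinase of secreted proteins (-1.10, SE 0.11). Calls made 50% of that list, against 28.5% of all genes and 43.7% of those at or above the median level.

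In fits that left out 1 sample, 3 of these 5 calls were often lost. Only B4galt7 and B3galt6 passed without nasal replicate 2, without nasal replicate 3, or without any 1 rib sample. In those fits the adjusted p was 0.0547 to 0.0735 for Xylt2, 0.0511 to 0.105 for B3gat3 and 0.0608 to 0.110 for Fam20b. B3gat3 was also lost after quantile normalization and after cyclic loess.

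The promoters of the 4 members with the largest differences among those matched to a single promoter sequence are given here, to show the sequence at the start of genes with differences of at least 2-fold. Ext1, at 1.07, was not matched to one. The 4 sequences span 250 bases before to 50 after the annotated start and come from RefSeq (build GRCm38.p6), which held promoters for 34 of the measured members. Chst12 lies at chr5:140505359-140505658, plus strand, Hs3st1 at chr5:39644582-39644881, minus strand, B4galt7 at chr13:55599646-55599945, plus strand, and B3galt6 at chr4:155992629-155992928, minus strand. Each is written 5′ to 3′ on its gene's strand, and capitals mark a GC box core, GGGCGG on either strand.
Chst12: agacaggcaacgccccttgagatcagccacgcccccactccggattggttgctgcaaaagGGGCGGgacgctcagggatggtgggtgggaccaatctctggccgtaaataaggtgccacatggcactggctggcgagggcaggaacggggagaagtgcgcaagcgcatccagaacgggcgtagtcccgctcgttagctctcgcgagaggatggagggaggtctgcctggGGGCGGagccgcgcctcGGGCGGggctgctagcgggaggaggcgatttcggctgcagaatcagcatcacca
Hs3st1: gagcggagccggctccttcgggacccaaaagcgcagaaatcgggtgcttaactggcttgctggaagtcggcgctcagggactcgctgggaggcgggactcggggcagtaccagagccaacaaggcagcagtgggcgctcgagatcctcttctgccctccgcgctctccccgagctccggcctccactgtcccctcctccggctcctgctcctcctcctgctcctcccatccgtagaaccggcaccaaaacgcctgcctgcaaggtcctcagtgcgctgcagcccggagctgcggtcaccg
B4galt7: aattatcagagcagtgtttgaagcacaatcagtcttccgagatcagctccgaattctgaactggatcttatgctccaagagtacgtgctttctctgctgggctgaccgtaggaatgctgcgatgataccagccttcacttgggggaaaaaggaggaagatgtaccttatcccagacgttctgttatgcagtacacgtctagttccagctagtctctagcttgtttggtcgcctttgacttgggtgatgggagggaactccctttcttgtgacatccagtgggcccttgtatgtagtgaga
B3galt6: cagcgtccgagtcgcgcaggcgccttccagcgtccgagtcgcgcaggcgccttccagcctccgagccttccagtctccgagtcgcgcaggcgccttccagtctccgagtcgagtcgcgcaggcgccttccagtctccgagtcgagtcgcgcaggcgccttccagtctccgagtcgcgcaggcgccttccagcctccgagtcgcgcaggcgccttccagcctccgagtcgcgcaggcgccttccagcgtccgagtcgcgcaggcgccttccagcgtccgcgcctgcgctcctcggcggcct

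In all, 4 short motifs were looked for on both strands, namely the SOX cores AACAAT and ACAAAG, the cyclic AMP response core TGACGT and the GC box core. In the 4 promoters above, Chst12 held 3 copies of the GC box, and no other match was found. It was present in 66.7% of the 42 promoters of members and in 35.7% of all 32851 promoters. AACAAT was in 3 of the 42, or 7.14%, and in 10.7% of all promoters. ACAAAG was in 1, or 2.38%, and in 18.7% of all. TGACGT was in 5, or 11.9%, and in 7.51% of all. The members' promoters had a median GC content of 66.3%, against 52.7% for all promoters. The 4 printed promoters themselves ranged from 48.3% in B4galt7, with 8 CpG dinucleotides, to 72.7% in B3galt6, with 48.

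Chondroitin chains are started and extended by a family of transferases. Csgalnact1 and Csgalnact2 add the N-acetylgalactosamine that commits a chain to chondroitin. Csgalnact1 read 888, 1062 and 978 in the nasal samples and 1668, 1499 and 1306 in the rib samples (log2 difference -0.61, SE 0.12, limma adjusted p = 0.0111). Csgalnact2 read 1221, 1259.7 and 1073 in the nasal samples and 1572, 1614 and 1602 in the rib samples (log2 difference -0.43, SE 0.10, limma adjusted p = 0.0151). Both were higher in every rib sample than in any nasal sample, and the call of Csgalnact2 was lost without rib replicate 2 or 3 (adjusted p of 0.0511 to 0.0623).

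Chsy1, Chsy3, Chpf and Chpf2 encode the synthases and polymerizing factors that alternate glucuronic acid and N-acetylgalactosamine. Chsy1, the brightest of them, read 4945, 4993 and 4918 in the nasal samples and 4062, 4138 and 4268 in the rib samples, without overlap but short of the threshold (log2 difference 0.25, SE 0.08, limma adjusted p = 0.0552). It passed without the dim genes, with a pseudocount of 50, and with a variance prior that followed the level. Chsy3 stood at 1340.5 in nasal and 1174 in rib (0.19, SE 0.11, adjusted p = 0.222) and Chpf at 1246 in nasal and 1331 in rib (-0.10, SE 0.08, adjusted p = 0.412).

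Chpf2 alone of these 4 passed. It read 681, 615 and 672 in the nasal samples and 1199, 1222 and 1145 in the rib samples (log2 difference -0.86, SE 0.09, limma adjusted p = 0.000809), 1.81-fold higher in rib. The ratio of Chpf to Chpf2 within each sample was higher in nasal, with a log2 difference of 0.76 (SE 0.04), and the groups did not overlap. The 4 genes that extend the chain held positive and negative values, while both starting enzymes were higher in rib.

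Sulfation of chondroitin mostly falls on position 4 or position 6 of N-acetylgalactosamine. Chst11, Chst12 and Chst13 encode 4-O-sulfotransferases, and of these Chst11 is the one whose loss in mice disrupts growth plate cartilage. Chst11 read 6839, 7001 and 6342 in the nasal samples and 5376, 4753 and 4225 in the rib samples (log2 difference 0.50, SE 0.11, limma adjusted p = 0.0174), 1.41-fold higher in nasal. Chst12 read 463, 542 and 565 in the nasal samples and 1293, 1221 and 1446 in the rib samples (log2 difference -1.34, SE 0.12, limma adjusted p = 0.000469), 2.52-fold higher in rib and the largest difference among the 41 genes. Chst13 stood at 289.8 in nasal and 264 in rib (0.13, SE 0.18, adjusted p = 0.598), with nasal replicate 1 above the other 5 samples.

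The opposite directions of Chst11 and Chst12 made theirs the largest shift among the 16 pairs of genes compared within samples. Their log2 ratio was 3.69 in nasal and 1.86 in rib, a difference of 1.83 (SE 0.19). It ran from 1.63 to 1.94 over quantile normalization, cyclic loess, a pseudocount of 50, the mean of probe sets and the fits that left out 1 sample. The Chst11 call was lost without nasal replicate 2, rib replicate 2 or rib replicate 3 (adjusted p of 0.0548 to 0.0655).

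Chst3 and Chst7 encode 6-O-sulfotransferases, and human CHST3 deficiency causes a spondyloepiphyseal dysplasia. Chst3 read 312, 276 and 248 in the nasal samples and 373, 351 and 385 in the rib samples (log2 difference -0.41, SE 0.11, limma adjusted p = 0.0314). Every rib sample lay above the nasal samples, but the call was lost without any 1 sample other than nasal replicate 1 (adjusted p of 0.0706 to 0.0947). Chst7 was the 1 member below the median gene level, at 87.5 in nasal and 123 in rib (-0.49, SE 0.20, adjusted p = 0.107), and it passed as higher in rib without nasal replicate 1 (adjusted p = 0.0177), after quantile normalization, after cyclic loess and under median centring. The log2 ratio of Chst11, a 4-O enzyme, to Chst3, a 6-O enzyme, was higher in nasal by 0.91 (SE 0.14).

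Dermatan sulfate arises when epimerases turn glucuronic acid of a chondroitin chain into iduronic acid. Dse encodes the main epimerase and read 2539, 2598 and 2477 in the nasal samples and 1953, 2178 and 1986 in the rib samples (log2 difference 0.32, SE 0.09, limma adjusted p = 0.0353). Chst14, which sulfates next to that iduronic acid, went the other way and read 464, 406 and 428 in the nasal samples and 686, 709 and 792 in the rib samples (log2 difference -0.75, SE 0.10, limma adjusted p = 0.00219), 1.68-fold higher in rib. Chst15, which adds a 6-O-sulfate to residues already sulfated at 4-O, read 778, 873 and 821 in the nasal samples and 506, 556 and 568 in the rib samples (log2 difference 0.60, SE 0.10, limma adjusted p = 0.00405), 1.52-fold higher in nasal.

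In all 3 of these genes the groups stood apart. Dse lost its call without any 1 sample other than nasal replicate 1 (adjusted p of 0.0640 to 0.113) and under median centring, whereas Chst14 and Chst15 kept theirs in all 14 alternatives. The second epimerase gene Dsel (479 in nasal and 494 in rib; -0.04, SE 0.12, adjusted p = 0.809) did not pass. Ust, the uronyl 2-O-sulfotransferase, was the brightest of the 4 genes of this step that did not pass, and read 612, 746 and 621 in the nasal samples and 789, 745 and 699 in the rib samples (log2 difference -0.18, SE 0.11, limma adjusted p = 0.268).

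**Figure D3:**
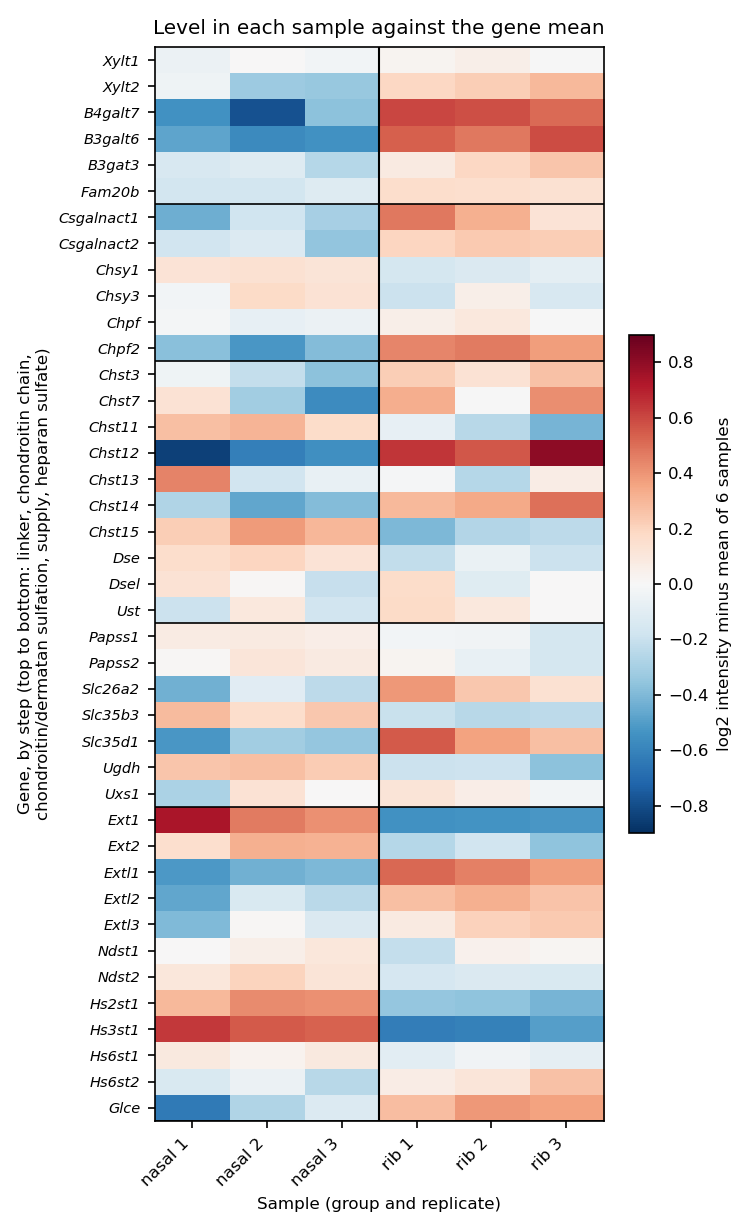
Log2 intensity of each of the 41 genes in each of the 6 samples, minus the mean of that gene over the 6 samples (colour), with nasal samples left and rib samples right of the vertical line and horizontal lines between steps. Most rows change colour at the vertical line. Chst13 and Chst7 differ among samples of 1 group as well, with SDs of 0.33 and 0.35 on the log2 scale in nasal.

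Heparan sulfate is polymerized by a complex of Ext1 and Ext2, whose loss in growth plate cells gives rise to cartilage-capped outgrowths. Ext1 read 2708, 2252 and 2165 in the nasal samples and 1119, 1121 and 1134 in the rib samples (log2 difference 1.07, SE 0.11, limma adjusted p = 0.000772), 2.10-fold higher in nasal. Ext2 read 1879.7, 2113 and 2103 in the nasal samples and 1418, 1505 and 1319.7 in the rib samples (log2 difference 0.52, SE 0.10, limma adjusted p = 0.00813). The nasal samples lay above the rib samples for both subunits. The Ext1 difference exceeded that of Ext2 by 0.55 (SE 0.17), with nasal replicate 1 farthest out.

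Of the 3 Ext-like genes, 2 were higher in rib. Extl3 encodes the enzyme that starts the heparan chain, Extl2 one that can cap a phosphorylated linker and end the chain, and Extl1 a related N-acetylglucosaminyltransferase. Extl1 read 752, 795 and 813 in the nasal samples and 1539, 1467 and 1395 in the rib samples (log2 difference -0.90, SE 0.09, limma adjusted p = 0.000696), 1.86-fold higher in rib. Extl2 read 314, 395 and 366 in the nasal samples and 525, 541 and 518 in the rib samples (log2 difference -0.56, SE 0.11, limma adjusted p = 0.00889). Extl3 stood at 735 in nasal and 934 in rib, without overlap but short of the threshold (-0.35, SE 0.13, adjusted p = 0.0825), and passed as higher in rib without the dim genes, with a pseudocount of 50 and with a variance prior that followed the level. All 3 genes had negative differences, opposite to those of Ext1 and Ext2.

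Heparan sulfation starts with N-deacetylase/N-sulfotransferases and goes on with epimerization and O-sulfation. Of the Ndst genes, Ndst2 read 1085, 1159 and 1097 in the nasal samples and 910.5, 924 and 918 in the rib samples (log2 difference 0.28, SE 0.08, limma adjusted p = 0.0423), and Ndst1 stood at 897 in nasal and 833 in rib (0.11, SE 0.10, adjusted p = 0.451). Ndst2 lost its call without any 1 sample other than nasal replicate 1 (adjusted p of 0.0825 to 0.134) and under median centring. Glce, the epimerase that makes iduronic acid in heparan sulfate, was higher in rib. It read 1060.5, 1368 and 1516 in the nasal samples and 1996, 2157 and 2116 in the rib samples (log2 difference -0.68, SE 0.14, limma adjusted p = 0.0120), with nasal replicate 1 the lowest of all.

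The 2-O-sulfotransferase Hs2st1 acts on that iduronic acid and went the other way. It read 708, 775 and 767 in the nasal samples and 452, 449.8 and 431 in the rib samples (log2 difference 0.75, SE 0.09, limma adjusted p = 0.00117), 1.69-fold higher in nasal. Hs3st1, which adds the rare 3-O-sulfate known from the antithrombin-binding site, read 451, 427 and 420.2 in the nasal samples and 189, 191 and 206 in the rib samples (log2 difference 1.15, SE 0.09, limma adjusted p = 0.000313), 2.22-fold higher in nasal. No sample of either gene crossed into the range of the other group.

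The 6-O-sulfotransferase genes did not pass. Hs6st1 was the brightest of the heparan genes that did not, and read 1015, 976 and 1014 in the nasal samples and 893, 934 and 904 in the rib samples, without overlap (log2 difference 0.14, SE 0.08, limma adjusted p = 0.241). It passed as higher in nasal after cyclic loess. Hs6st2 stood at 259 in nasal and 317 in rib (-0.29, SE 0.10, adjusted p = 0.0695), and was called for rib under median centring, without the dim genes and after quantile normalization. Its other probe set differed by -0.04 (SE 0.10), so the value depended on the probe set. The log2 ratio of Hs6st1 to Hs6st2 was higher in nasal by 0.43 (SE 0.10).

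Other heparan sulfotransferases, listed apart from the members, had 4 of 8 genes higher in nasal and 0 in rib by limma (0 in rib also at an unadjusted p under 0.05). They were Hs3st3a1 (476 in nasal and 284 in rib; log2 difference 0.75, SE 0.15, limma adjusted p = 0.0116), Hs6st3 (0.54, SE 0.14), Hs3st3b1 (0.45, SE 0.12) and Hs3st5 (0.45, SE 0.14), of which Hs3st5 was dim at 94.2 in nasal and 69.2 in rib. Hs3st3a1 passed in all 14 alternatives, and Hs3st5 in 3 of 13. With the 6 sulfotransferase members, 7 of 14 heparan sulfotransferase genes were called higher in nasal and 0 in rib (1, Hs6st2, at an unadjusted p under 0.05). Over all genes 13.8% were called higher in nasal, and 17.1% of those at or above the median level. The median difference of the 14 was 0.29, against 0.23 among all genes below the median level and -0.07 among those above it. That grouping was made after the values were seen.

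Sulfate for these chains enters chondrocytes through Slc26a2, the transporter mutated in human diastrophic dysplasia. Slc26a2 read 2473, 3109 and 2845 in the nasal samples and 4378, 3953 and 3681 in the rib samples (log2 difference -0.51, SE 0.12, limma adjusted p = 0.0188), 1.43-fold higher in rib, and lost its call without rib replicate 1 or 2 (adjusted p of 0.0618 to 0.0706). Papss2, the PAPS synthase whose loss shortens limbs in mice and humans, was the brightest supply gene that did not pass. It read 10795, 11571 and 11322 in the nasal samples and 10930.1, 10249 and 9637 in the rib samples, with overlap (log2 difference 0.13, SE 0.09, limma adjusted p = 0.316). Papss1 stood at 675 in nasal and 611 in rib (0.14, SE 0.09, adjusted p = 0.248), without overlap, and passed as higher in nasal after quantile normalization and after cyclic loess.

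Slc35b3, a PAPS transporter of the Golgi, read 642, 589 and 623 in the nasal samples and 459.8, 444 and 449 in the rib samples (log2 difference 0.45, SE 0.08, limma adjusted p = 0.00773). It was higher in every nasal sample, and its 3 probe sets, 2 of them with identical values, gave differences of 0.45 to 0.51. Slc35d1, which carries UDP-glucuronic acid and UDP-N-acetylgalactosamine for chondroitin and whose loss causes a lethal skeletal dysplasia, read 1427, 1656 and 1613 in the nasal samples and 3012, 2637 and 2481 in the rib samples (log2 difference -0.79, SE 0.11, limma adjusted p = 0.00269), 1.73-fold higher in rib.

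Ugdh makes UDP-glucuronic acid, and Uxs1 turns it into the UDP-xylose of the linker. Ugdh read 9678, 9826 and 9560.3 in the nasal samples and 7140.0, 7147 and 6309 in the rib samples (log2 difference 0.50, SE 0.09, limma adjusted p = 0.00732), 1.41-fold higher in nasal. Uxs1 stood at 2515 in nasal and 2700.2 in rib (-0.10, SE 0.13, adjusted p = 0.561), with overlap. Ugdh and the transporter gene Slc35d1 had called differences of opposite sign.

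**Figure D4:**
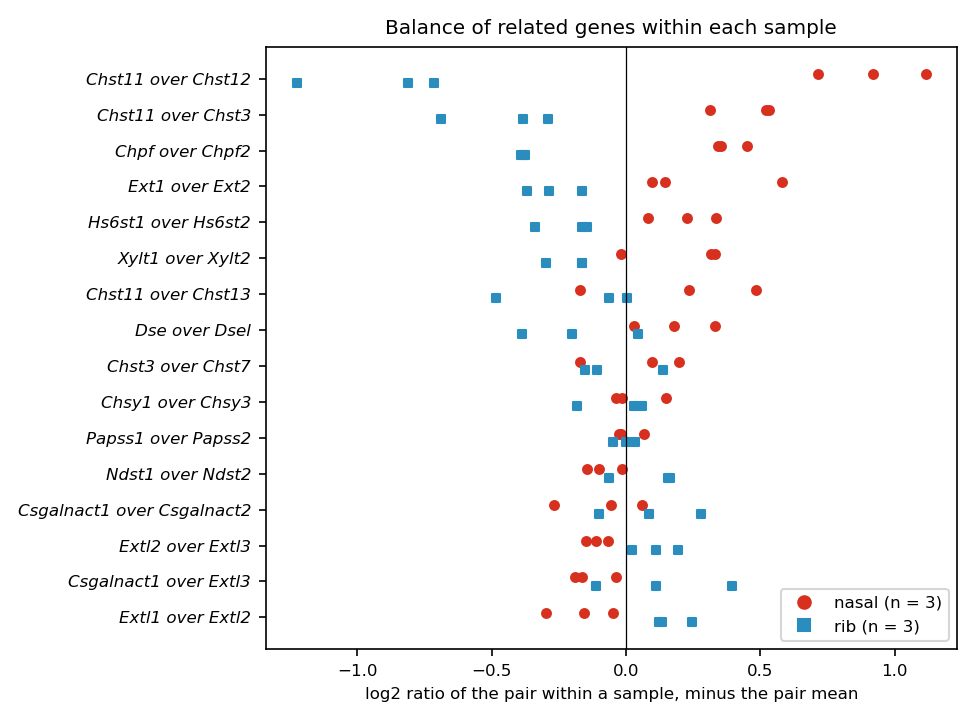
Log2 ratio of 2 related genes within each sample, minus the mean of the pair (horizontal), for 16 pairs, with nasal samples as circles and rib samples as squares. Chst11 over Chst12 shows the widest separation, and 8 of the 16 pairs have groups that do not overlap. Of single genes, 45.7% of all and 64.4% of those at or above the median level do not overlap.

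A single scaling factor for an array leaves the 16 within-sample ratios as they are. For 8 of them the groups did not overlap, and each of these had p = 0.1 in a two-sided exact permutation test, the smallest that 3 against 3 samples allow (adjusted p = 0.2 over the 16 pairs). No pair could therefore pass. Of single genes, 45.7% of all and 64.4% of those at or above the median level did not overlap. Such a share was not computed for ratios of other gene pairs. Beside those above, the non-overlapping pairs were Extl1 to Extl2, at -0.33 (SE 0.08), and Extl2 to Extl3, at -0.22 (SE 0.06). The ratio of Papss1 to Papss2 differed by 0.01 (SE 0.04) and that of Chsy1 to Chsy3 by 0.06 (SE 0.10), both within the spread between samples. Papss1 to Papss2 became 0.17 after quantile normalization and 0.31 after cyclic loess.

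Neighbouring parts of the pathway were read from lists kept apart from the members. Of 7 genes of sulfate transport and PAP removal, 0 were higher in nasal (0 also at an unadjusted p under 0.05) and 3 in rib. That share, 42.9%, was near the 43.7% of genes at or above the median level, against 28.5% of all genes. Called higher in rib were 26.7% and 14.7% of those gene sets. The list also held genes below the median level, among them Slc13a1, at 49.8 in nasal and 39.2 in rib. Bpnt2, the Golgi phosphatase that clears the by-product of sulfation, had 1549 in nasal and 3029 in rib (log2 difference -0.97, SE 0.11, limma adjusted p = 0.00108). Slc26a6, an anion exchanger (-0.61, SE 0.11), and Bpnt1, the cytosolic phosphatase (-0.61, SE 0.11), were the others.

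Sugar nucleotide supply had 3 of 11 genes higher in nasal and 2 in rib, or 45.5% called in all. Over all genes 28.5% passed, and 43.7% of those at or above the median level. Uap1 (0.66, SE 0.14) and Gfpt1 (0.36, SE 0.10), of UDP-N-acetylglucosamine synthesis, and Ugp2, which makes UDP-glucose (0.60, SE 0.10), were on the nasal side. Slc35b4, a Golgi transporter of UDP-xylose and UDP-N-acetylglucosamine, was on the rib side with 632 in nasal and 1512 in rib (log2 difference -1.26, SE 0.09, limma adjusted p = 0.000288), as was Galk2, an N-acetylgalactosamine kinase (-0.60, SE 0.10).

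Keratan sulfate, another sulfated chain, had 4 of 11 synthesis genes higher in nasal and 2 in rib. That made 54.5% called, against 28.5% of all genes and 43.7% of those at or above the median level. The sulfotransferase genes Chst5 (723 in nasal and 254 in rib; log2 difference 1.51, SE 0.13, limma adjusted p = 0.000425), Chst1 (0.87, SE 0.09) and Chst2 (0.40, SE 0.10) and the galactosyltransferase B4galt1 (0.84, SE 0.09) were higher in nasal. The sialyltransferase St3gal3 (-0.68, SE 0.08) and the galactosyltransferase B4galt4 (-0.45, SE 0.13) were higher in rib. Hyaluronan, a chain made without sulfate or core protein, had 1 of 3 synthases higher in each direction, with Has2 at 4450.4 in nasal and 2186 in rib (log2 difference 1.03, SE 0.11, limma adjusted p = 0.000948) and Has1 at 358 in nasal and 741 in rib (log2 difference -1.05, SE 0.10, limma adjusted p = 0.000638).

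The core proteins that carry these chains were read as well. Among 10 carriers of chondroitin or dermatan sulfate, 0 were higher in nasal (1 at an unadjusted p under 0.05) and 1 in rib, the small proteoglycan Dcn (-0.44, SE 0.12). Aggrecan, Acan, did not pass (0.19, SE 0.08, adjusted p = 0.126). Among 14 carriers of heparan sulfate, the glypican Gpc6 (5387 in nasal and 3623 in rib; log2 difference 0.57, SE 0.09, limma adjusted p = 0.00397), agrin, Agrn (0.38, SE 0.10), and the syndecan Sdc3 (0.37, SE 0.09) were higher in nasal, and Tgfbr3 (-0.93, SE 0.10) and Gpc1 (-0.43, SE 0.10) in rib. The calls made 10% of the first list and 35.7% of the second. Over all genes 28.5% passed, and 43.7% of those at or above the median level.

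Lysosomal enzymes that take the chains apart had 3 of 16 genes higher in nasal and 5 in rib. These calls made 50%, against 28.5% of all genes and 43.7% of those at or above the median level. Among the lysosomal genes, Hyal1 (0.45, SE 0.10), a hyaluronidase, and Hexa (0.40, SE 0.10), a hexosaminidase chain, were higher in nasal. Hgsnat (-0.75, SE 0.09) and Ids (-0.59, SE 0.10), which act on heparan sulfate, were higher in rib, as was the galactosidase Glb1 (-0.52, SE 0.09). Sox9, the factor the series is about, stood at 7548 in nasal and 9189 in rib (log2 difference -0.28, SE 0.09, limma adjusted p = 0.0491), and 1 of the 3 Sox genes listed passed.

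Of the 37 genes called in these neighbouring lists, 22 passed in all alternatives run and none changed sign. Leaving out any 1 sample ended the call of Sox9 (adjusted p up to 0.146 over all alternatives). Under median centring or in 1 or more fits without a sample, the calls lost included those of Chst2, B4galt4, Gfpt1, Hs3st3b1, Hs3st5, Hs6st3, Hexa, Hyal1, Hyal2, Dcn, Agrn, Gpc1 and Sdc3 (adjusted p up to 0.279 over all alternatives).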

How the data were processed

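Per the labels' protocols, RNA was extracted with Trizol, treated with DNase and hybridised to Affymetrix whole-transcript arrays after labelling. The authors deposited 1 table of intensities on a linear scale for the 6 arrays, and the submitters' processing notes name RMA without a version. Its settings and the build behind the probe sets are not stated in these sources. Each array's mean after trimming 2% at each end was 500, so all arrays had been scaled to one level. Detection calls were not used here, so differences of dim genes may be understated.

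Of 28451 probe sets, 24935 matched 1 symbol through their RefSeq accession (table of assembly GRCm38.p6, for names) and 3516 matched none. Values were taken to log2 with no pseudocount. The probe set with the highest mean stood for each of 19932 genes. Differences between nasal and rib were fitted with limma 3.58.1 in R 4.3.3 over all genes, on all 6 samples without a covariate, with Benjamini-Hochberg adjustment. The fit was tested on simulated data. Ratios of gene pairs within a sample were tested with exact permutation in scipy 1.17.1.

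The members, the pathway and marker lists and the alternatives were chosen with earlier results of these data known. Members past the threshold and the brightest other member of each step are given by sample, and up to 4 called genes per direction from each pathway list. Some genes that this rule names are not reported here. Alternatives were quantile normalization, cyclic loess, median centring, a filter at the 25th percentile, a pseudocount of 50, the mean of a gene's probe sets, eBayes with trend and robust, the replicate number as a block, and each sample left out. Intensities of different probe sets are not on a common scale, so the brightest gene of a step is a rule for naming it, summed marker levels weigh bright probe sets most, and only changes of a ratio between groups are read. The labels give no batch or scan time. A p-value from limma sets a difference against the spread between these samples, drawn towards the spread typical of all genes.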

Additional observations from a re-analysis of the deposited data

How the results depend on the processing

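No called member changed sign in any of the 14 alternatives, and 17 of the 26 called members passed in all of them. The exceptions were Xylt2, B3gat3, Fam20b, Csgalnact2, Chst3, Chst11, Dse, Slc26a2 and Ndst2. B3gat3 was also lost after quantile normalization and cyclic loess, and Dse and Ndst2 under median centring. Chst7 gained a call for rib under quantile normalization, cyclic loess and median centring. The median of all genes was 0.11 as deposited and -0.005 after quantile normalization. Without the dim genes, 5 heparan genes were higher in rib.

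Deviations of same-numbered samples from their group means correlated at -0.02, 0.22 and -0.28. With 3 samples per group these values cannot show whether the replicate numbers pair the samples. With the replicate block, 10 members were higher in rib, among them 2 of the linker and 1 of supply, and 3903 of all genes passed. Leaving out 1 sample gave 3466 to 5764 called genes, 7 to 10 members higher in nasal and 10 to 17 in rib. By step these fits gave 2 to 5 linker genes, 2 to 3 of the chondroitin chain, 2 to 4 of chondroitin sulfation, 1 to 2 of supply and 3 heparan genes higher in rib. Higher in nasal they gave 1 to 3 of chondroitin sulfation, 2 of supply and 4 to 5 heparan genes.

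Among uncalled members, 4 turned sign. Dsel became 0.055 after quantile normalization and 0.08 after cyclic loess, and Papss2 became -0.043 after cyclic loess. Over the fits that left out 1 sample, Dsel ran from -0.119 (without nasal replicate 1) to 0.049, Chst13 from -0.056 (without nasal replicate 1) to 0.254, and Uxs1 from -0.193 to 0.015 (without nasal replicate 1). Among gene pairs, Chsy1 to Chsy3 became -0.08 and Xylt1 to Xylt2 fell to 0.18 after cyclic loess. The cause was not tested in any of these.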

Other observations

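Some genes whose enzymes act on the same residue or donor differed in opposite directions. These pairs were chosen after the values were seen because their genes went opposite ways, so the difference of each ratio adds up those of its genes, and no test was made of it. The log2 ratio of Fam20b, the xylose kinase, to Pxylp1, the xylose phosphatase, was 1.67, 1.66 and 1.66 in the nasal samples and 2.87, 2.96 and 2.94 in the rib samples. That is a 2.39-fold shift towards the kinase in rib. The ratio of Hs2st1, the 2-O-sulfotransferase of heparan sulfate, to the epimerase gene Glce was -0.80 ± 0.20 (SD, n = 3) in nasal and -2.23 ± 0.08 (SD, n = 3) in rib, a 2.71-fold shift.

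The ratio of Chst15 to Chst14, which sulfate chondroitin and dermatan chains, was 0.93 ± 0.18 (SD, n = 3) in nasal and -0.42 ± 0.07 (SD, n = 3) in rib. The ratio of Ugdh, which makes UDP-glucuronic acid, to Slc35d1, which carries it into the secretory pathway, was 2.63 ± 0.11 (SD, n = 3) in nasal and 1.34 ± 0.10 (SD, n = 3) in rib, a 2.44-fold shift. A level of 1 probe set cannot be set against that of another, so only the change of each ratio between groups can be read.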
